A study of Mus musculus with 2 samples.

Results

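The microRNA gene Mir151 and the gene that contains it, Ptk2, were followed in 2 small RNA libraries of mouse spleen cells. They are 2 of 23206 genes searched, counting miRNA hairpins and protein-coding genes together. Members were chosen by name, after both arms of miR-151 had been seen to differ between these libraries, so the read counts of miR-151 are given as a description. Reads were taken for Mir151 where a tag (a distinct sequence with its read count) of 18 to 30 nt equalled a stretch of the hairpin, directly or after 1 to 3 nt were trimmed from its 3′ end. Ptk2 was measured by tags of 20 to 30 nt identical, in sense, to its transcripts and to those of no other gene.

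Cells of C57BL/6J mice, called dendritic cells in the labels, were enriched with CD11c beads and then sorted on surface Ia (MHC class II), which gave an Ia_high population and an Ia_low one. No genotype, treatment, age, sex or number of animals is given for either, and both passed the same CD11c enrichment. There was 1 library for each population, so no difference has a replicate check, and no p-value is given. The Ia_high library held 16388303 reads and the Ia_low library 13739811, of which 5846363 and 2690905 were assigned to miRNA arms.

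miRNAs are cut from a hairpin, whose 5p and 3p arms can each enter an Argonaute protein and direct it to mRNAs through the seed, the bases near the 5′ end. An miRNA inside an intron can be made from the transcript of its host gene. Ptk2 encodes focal adhesion kinase, a tyrosine kinase that is recruited to clustered integrins, binds Src and phosphorylates adaptors such as paxillin. Its relative Pyk2, from Ptk2b, is the better known member of the pair in blood cells. miR-151 has been studied mainly in cell migration, with Arhgdia as a target, and its hairpin is a known substrate of adenosine deamination.

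On GRCm38, Ptk2 spans chr15:73205102-73423280 on the minus strand, and its main coding transcript has 32 exons. The Mir151 hairpin of 68 nt lies at chr15:73254815-73254882 on the same strand, in intron 22, which is 14556 nt long. It starts 2151 nt after the preceding exon and ends 12337 nt before the next. The hairpin is shown because the tags below are read against it. Capitals mark the most abundant tag of each arm.

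Mir151 hairpin: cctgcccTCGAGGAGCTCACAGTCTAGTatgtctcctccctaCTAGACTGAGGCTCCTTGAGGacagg

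In the most abundant tag of each arm, given next as deposited with T for U, capitals mark the seed (bases 2 to 8).

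miR-151-5p: tCGAGGAGctcacagtctagt
miR-151-3p: cTAGACTGaggctccttgagg

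These tags had 8417 and 20982 reads in Ia_high and 292 and 993 in Ia_low. The 2 seeds differ from each other, and neither is shared with any other of the 238 arms that averaged 10 CPM (reads per 1000000 miRNA-assigned reads) or above. Trimmed ends allowed, the hairpin took 256 tags with 136780 reads in Ia_high and 57 tags with 6087 reads in Ia_low. Of the 57 Ia_low tags, 55 were also present in Ia_high, and no read fitted another hairpin.

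miR-151 was abundant in Ia_high and much lower in Ia_low, on both arms. By exact matches, miR-151-3p had 54856 reads (9383 CPM) in Ia_high, where Ia_low held 1898 reads (705 CPM). It was the arm of rank 20 in Ia_high and of rank 56 in Ia_low. miR-151-5p had 11599 reads (1984 CPM) against 403 reads (150 CPM) and moved from rank 45 to rank 94. The level in Ia_low was thus 13.3-fold lower for the 3p arm (95% counting interval 11.6 to 15.3) and 13.2-fold lower for the 5p arm (9.83 to 18.1). For these exact (Clopper-Pearson) intervals, read counts were first divided by the number of reads that tags most often had, 4 in Ia_high and 9 in Ia_low. PCR copies cannot be told from separate molecules without molecular identifiers, so intervals and floors cover counting error only.

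A lower level was common in this comparison: 32.8% of the 238 arms were called lower in Ia_low, by 2-fold or more and with an interval on undivided read counts below 1, and 8.82% were called higher, with a median log2 ratio of -0.39. With the wider interval on divided counts, a rule added after seeing the data, 28.2% were lower and 8.40% higher. Both arms of miR-151 were lower by either rule. Among the 117 arms that averaged 100 CPM or above, they had ranks 2 and 3 from the lowest ratio, after miR-138-5p (370 and 26.8 CPM). The next was miR-676-3p, with 741 and 71.0 CPM. miR-21a-3p (630 and 75.8 CPM), miR-99b-5p (206 and 27.9 CPM) and miR-16-1-3p (365 and 56.5 CPM) completed the 5 arms whose log2 ratio was nearest to that of miR-151-3p. The 5 were chosen by their ratio, so that each was higher in Ia_high follows from the choice. Each was far below miR-151-3p in CPM there.

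**Figure D1:**
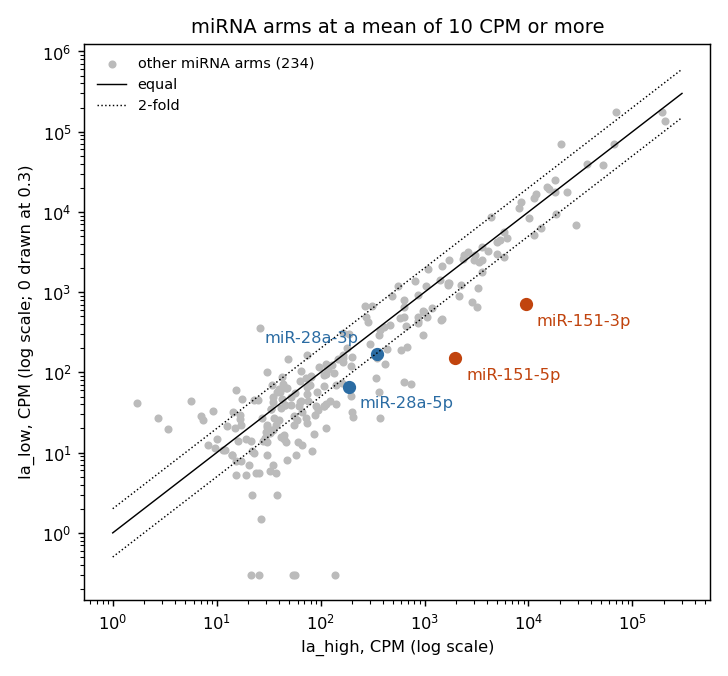
Levels of the 238 miRNA arms that averaged 10 CPM or above, with CPM in Ia_high on the x axis and CPM in Ia_low on the y axis, both on log scales; each point is 1 arm in 1 library per population, the solid line marks equal levels and the dotted lines 2-fold differences. Both arms of miR-151 (9383 to 705 and 1984 to 150 CPM) lie far below the lower dotted line, while both arms of miR-28a lie near it.

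The size of the difference moved with the scaling while its direction did not. Scaled to all reads of the library in place of miRNA reads, miR-151-3p was 24.2-fold and miR-151-5p 24.1-fold lower in Ia_low. When Ia_high reads were weighted for the difference in read length between the libraries, the values were 7.95-fold and 10.1-fold. Counted as distinct tags, which records how many forms were seen and not how often, miR-151-3p had 25 in Ia_high and 11 in Ia_low, a scaled ratio of 0.868 (0.386 to 1.83).

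The libraries also differed in markers of cell types, read from mRNA fragments as described for Ptk2 further on. Across all genes measured in this way, 9.58% were called lower in Ia_low and 6.35% higher. Of 8 dendritic cell genes, 6 were lower and none was higher, with 4762 fragments in Ia_high and 1039 in Ia_low (14875 and 7849 per 1000000 fragments). MHC class II genes are among these, and the sort was made on their product. Of the cDC1 genes, 4 of 5 measured were lower, with Xcr1 at 42 and 0 fragments and Clec9a at 96 and 2. Of the cDC2 genes, 2 of 3 measured were lower, Irf4 (116 and 14) and Cd209a (85 and 9), while Sirpa had 226 and 141 (ratio 1.51), and the list held 1349 and 1239 per 1000000 fragments. Ly6C-low monocyte genes went the other way: 7 of 8 were higher, with 5057 and 13008 per 1000000 fragments. Markers of other cells were sparse. T cell genes held 32 and 0 fragments, all of Tcf7, B cell genes 26 and 4, and NK cell genes 2 and 4. Endothelial and stromal genes held 35 and 10 fragments, with Col1a1, Col3a1, Pdgfra and Tek at 0 in both libraries, and platelet genes held 2 and 0, with Pf4, Gp9, Gp1bb and Itga2b at 0 in both. How far these differences in markers contribute to the level of miR-151 was not tested, and in such bulk libraries fewer cells of a type and less RNA per cell cannot be told apart.

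By exact matches, the 2 arms kept the same proportion. miR-151-5p made up 17.5% of exact hairpin reads in Ia_high (16.9 to 18.0) and 17.5% in Ia_low (13.1 to 22.8), or 4.73 and 4.71 reads of the 3p arm for each read of the 5p arm. On the log2 scale the 5p over 3p ratio changed by 0.0060. Of the 26 hairpins with at least 100 reads on each arm in each library, none changed less, and the median absolute change was 0.52. With trimmed ends allowed, the 5p share was 9.06% in Ia_high (8.76 to 9.37) and 6.75% in Ia_low (5.02 to 8.97). Both shares were below the exact ones, because most reads of the 3p arm carried an added end and few of the 5p arm did. The share was then lower in Ia_low, with intervals that overlapped. With Ia_high reads weighted for read length, the shares were 21.2% in Ia_high and 17.5% in Ia_low.

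Both arms were cut at a nearly fixed 5′ end. The main start held 98.9% of miR-151-5p reads in Ia_high and all 411 in Ia_low, and 97.1% and 98.3% of miR-151-3p reads. The remaining 3p reads were mostly 1 or 2 bases longer at the 5′ end, which moves the seed. The form 1 base longer made up 1.47% of 3p reads in Ia_high (1.34 to 1.61) and 1.30% in Ia_low (0.549 to 2.48). The form 2 bases longer made up 0.935% (0.832 to 1.05) and 0.370% (0.0384 to 1.14), so in neither case were the intervals apart. Their most abundant tags are shown next, with the shifted seed in capitals.

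miR-151-3p, 1 base longer: aCTAGACTgaggctccttgag
miR-151-3p, 2 bases longer: tACTAGACtgaggctccttgag

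The first had 496 reads in Ia_high and 8 in Ia_low, and the second 349 and 0.

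The 3′ end of miR-151-3p was ragged, and it differed between the libraries. The stops within the hairpin after 19, 20, 21 and 22 nt from the main start accounted for nearly all reads once added bases were set aside. In Ia_high they held 13.6%, 27.8%, 30.4% and 27.3% of the reads, and in Ia_low 5.52%, 20%, 33.0% and 40.2%. Bases 19 and 22 of the arm are adenosines, so an adenosine added after 18 or 21 nt was counted as hairpin sequence. The Ia_low over Ia_high ratio of CPM rose with each base, from 0.0408 (0.0280 to 0.0567) at 19 nt to 0.0723, 0.109 and 0.148 (0.130 to 0.168) at 22 nt. These ratios set reads with and without added bases against the total of exact miRNA reads. On that scale all 3p reads had a ratio of 0.0991, and 0.0927 when the total also held reads with added bases. In total length the 3p reads peaked at 21 nt in both libraries. Reads of 23 nt made up 24.6% in Ia_low (21.3 to 28.1) and 16.5% in Ia_high. In Ia_low the 22 nt reads made up 22.9% (19.6 to 26.3), so a separate peak at 23 nt is not shown beyond counting error. miR-151-5p was less varied: 70.0% and 71.0% of its reads were 21 nt long and 22.7% and 27.0% were 22 nt.

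**Figure D2:**
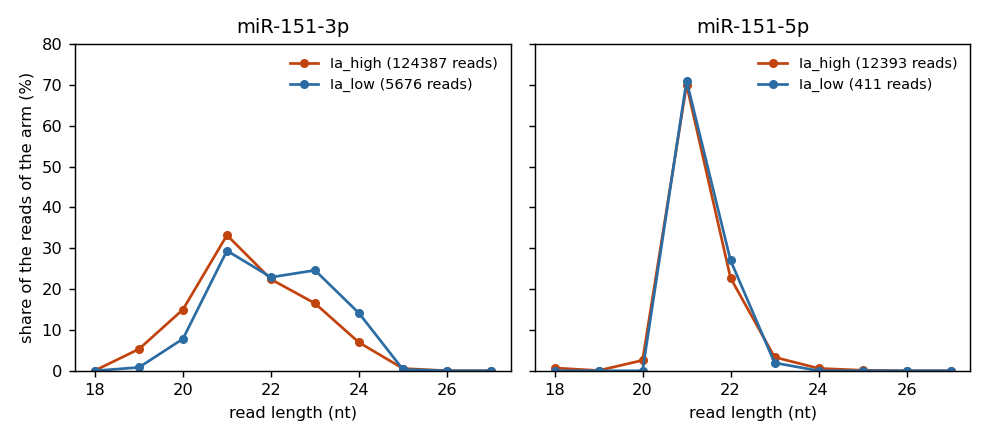
Share of the reads of each arm (y axis, %) by read length (x axis, nt), untemplated ends included, for miR-151-3p and miR-151-5p; lines join the values of 1 library, with its read number in the legend. The 3p reads of Ia_low reach further to the right, with 24.6% at 23 nt against 16.5% in Ia_high, and the 5p reads of both libraries peak at 21 nt, at 70.0% and 71.0%.

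Short reads were scarcer in Ia_low for miRNAs in general, not for miR-151 alone. Among exact 3p reads, the ratio of Ia_low to Ia_high relative to that at 22 nt was 0.181 at 19 nt, 0.539 at 20 nt, 1.17 at 21 nt and 2.37 at 23 nt. The median arm had 0.0681, 0.354, 0.711 and 1.33 at these lengths, over 65 to 164 arms. The part of this general shift in the lengths of miR-151-3p was not tested.

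Most miR-151-3p reads ended in bases that the hairpin does not encode. An untemplated end of 1 to 3 nt was present on 55.9% of 3p reads in Ia_high (55.3 to 56.5) and 66.6% in Ia_low (62.7 to 70.2). Such ends are added to miRNAs by terminal nucleotidyltransferases, which append adenosine or uridine. Adenosines alone ended 24.9% of reads in Ia_high and 26.6% in Ia_low, and uridines alone ended 23.9% and 28.9%. Mixed adenosine and uridine ends made up 6.18% (5.91 to 6.45) and 9.99% (7.76 to 12.6), while ends with cytidine or guanosine were rare at 0.944% and 1.0%. miR-151-5p differed from its partner, with added ends on 6.41% of reads in Ia_high (5.56 to 7.31) and on 8 of 411 reads in Ia_low, all of 1 tag.

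The 6 tags of the 3p arm that carry the pattern are shown with the untemplated bases in capitals. They begin alike and differ in where the hairpin sequence stops and what follows.

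3p stop at 19, adenosines: ctagactgaggctccttgaAA
3p stop at 20, uridine: ctagactgaggctccttgagT
3p stop at 20, adenosine: ctagactgaggctccttgagA
3p stop at 21, uridine: ctagactgaggctccttgaggT
3p stop at 22, adenosine: ctagactgaggctccttgaggaA
3p stop at 22, uridine: ctagactgaggctccttgaggaT

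In this order they had 3554, 8534, 5986, 11693, 11043 and 4121 reads in Ia_high. In Ia_low they had 62, 370, 167, 631, 776 and 338 reads. The tag that stops at 22 and gains an adenosine thus had more reads in Ia_low than the exact 22 nt tag (447), and slightly more than it in Ia_high as well (11043 against 10643).

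What was added differed with where the hairpin sequence stopped. In both libraries adenosines outnumbered uridines after the 19-nt and 22-nt stops, and uridines outnumbered adenosines after the 20-nt stop. After the 19-nt stop, adenosines alone followed in 45.0% of reads in Ia_high and 50.3% in Ia_low, and uridines alone in 6.64% and 11.7%. After the 20-nt stop, the shares were 23.4% and 22.1% for adenosines and 26.8% and 35.3% for uridines. At 21 nt the next hairpin base is itself an adenosine, so an added adenosine cannot be told from the templated base, and uridines alone followed in 36.3% and 39.7%. After the 22-nt stop, adenosines alone followed in 45.6% and 47.8% and uridines alone in 15.3% and 20.6%.

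**Figure D3:**
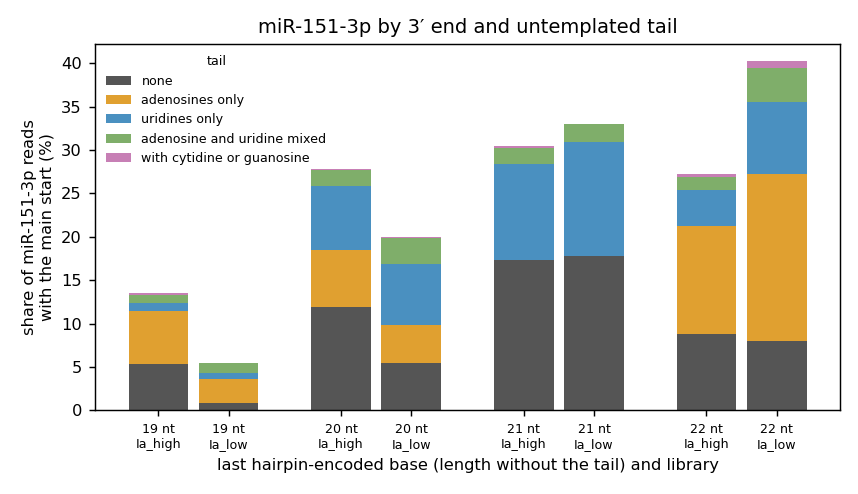
miR-151-3p reads with the main start (y axis, % of these reads) by the last hairpin-encoded base (19 to 22 nt) and library (x axis), stacked by the kind of untemplated end; 120820 reads in Ia_high and 5578 in Ia_low, 1 library each. The bars grow from 19 to 22 nt in Ia_low (5.52% to 40.2%), and adenosine ends are prominent at 19 and 22 nt in both libraries.

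miR-151-3p was tailed more often than most arms. Of 89 arms with at least 1000 reads in each library, the median arm was tailed in 16.9% of reads in Ia_high and 22.9% in Ia_low, and miR-151-3p ranked 11 and 10 from the highest. It ranked 6 in both libraries by adenosine ends and 11 and 14 by uridine ends. Tailing was higher in Ia_low for 67 of the 89 arms. Because tailed reads are longer and Ia_low had longer reads, the share was also taken at equal total length. It was 21.3% in Ia_high and 28.6% in Ia_low at 20 nt, 47.4% and 38.9% at 21 nt, 59.1% and 64.8% at 22 nt and 97.7% and 96.8% at 23 nt. At equal length the higher share was therefore not always in Ia_low, and only at 21 nt were the intervals apart (46.5 to 48.4 and 31.7 to 46.1).

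Single-base differences were rare in miR-151-3p, and A-to-G was the most frequent kind away from its first base in Ia_high. Positions 1 to 17 were counted from the 5′ end, and tags with 1 difference were included. A3G, within the seed, was found in 154 of 123974 reads in Ia_high, or 0.124% (0.0868 to 0.168), spread over 18 tags. In Ia_low it was found in 15 of 5720 reads, or 0.262% (0.0381 to 1.13), all in 1 tag. Inosine, the product of adenosine deamination, is read as guanosine. The most abundant A3G tag of each library is shown with the changed base in capitals.

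miR-151-3p A3G, Ia_high: ctGgactgaggctccttgagg
miR-151-3p A3G, Ia_low: ctGgactgaggctccttgagt

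The first had 19 reads in Ia_high and 0 in Ia_low, and the second had 1 and 15. A9G was present in 51 reads in Ia_high (0.0412%) and in none in Ia_low. For comparison, C1G reached 0.197% in Ia_high with 244 reads, and G10A reached 0.367% in Ia_low with 21 reads of 2 tags, so 1 other change was more frequent than A3G in each library. Over 324 adenosines at positions 2 to 17 of 74 arms, the median A-to-G share was 0.0152% in Ia_high and 0.0118% in Ia_low. The 95th percentile was 0.0746% and 0.0944%, and position 3 of miR-151-3p ranked 10 and 6. The adenosine just before the main 3p start, which the reads that begin 1 base earlier cover, was read as guanosine in 6 of 1849 reads in Ia_high (0.324%, 0.0525 to 1.55) and 0 of 75 in Ia_low, at most 36.9% by the interval. Whether any of these changes is an edit or an error of amplification or sequencing was not tested. Adar, which encodes a deaminase of adenosines in double-stranded RNA, had 44 and 18 fragments, a scaled ratio of 0.989 (0.538 to 1.75), and Adarb1 had 1 and 0.

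**Figure D4:**
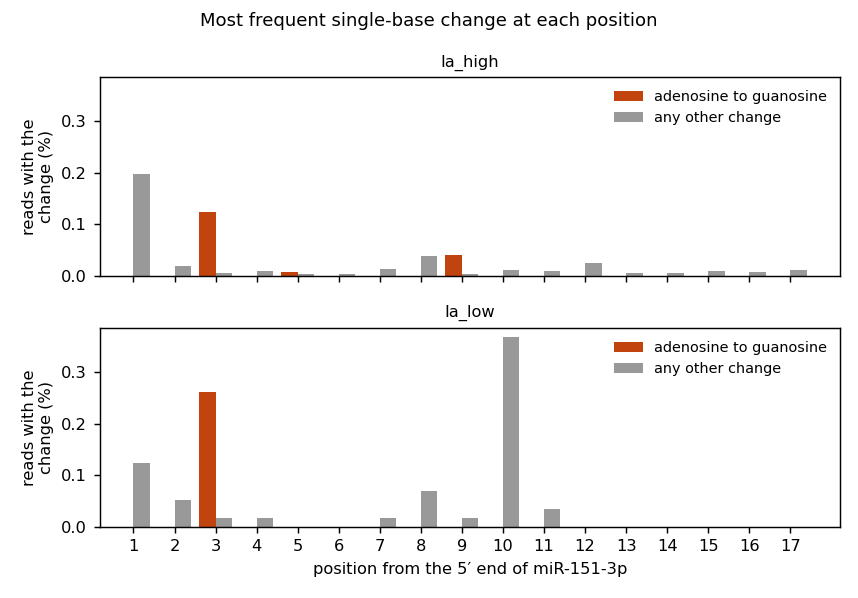
Share of miR-151-3p reads (y axis, %) with the most frequent single-base change at each position from the 5′ end (x axis), A-to-G separately from all other changes, for Ia_high above and Ia_low below, 1 library each. A-to-G stands out at position 3 (0.124% and 0.262%), beside the other changes at position 1 in Ia_high (0.197%) and position 10 in Ia_low (0.367%).

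miR-151 belongs to the mir-28 family with Mir28a, Mir28b, Mir28c and Mir708. The relation shows in the 5p arms, where 16 bases of the main miR-151-5p tag recur in the RefSeq (GRCm38.p6) sequence of miR-28a-5p, shifted by 2 bases so that the seeds differ. Capitals mark the shared stretch, and T is written for U.

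miR-151-5p: tcgAGGAGCTCACAGTCTAgt
miR-28a-5p: aAGGAGCTCACAGTCTAttgag

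Mir28a was the only other member above 10 CPM, and it was also lower in Ia_low but by less. The Ia_high library held 1094 reads of miR-28a-5p (187 CPM) and the Ia_low library 178 (66.1 CPM), a ratio of 0.354 (0.215 to 0.562). miR-28a-3p had 2035 reads (348 CPM) and 463 (172 CPM), a ratio of 0.494 (0.360 to 0.654). The ratios of the miR-151 arms, 0.0752 (0.0653 to 0.0862) and 0.0755 (0.0552 to 0.102), lay below both intervals. Of the others, miR-708-3p had 30 reads, all in Ia_high, and the absence of reads in Ia_low allows up to 3 counts, or 1.11 CPM. That floor is on undivided counts, and 1 tag at the most common depth in Ia_low would equal 3.34 CPM. Mir28b had no tag in either library, and Mir28c had no exact read.

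Ptk2 itself left few traces in these libraries. Short fragments of mRNA are a by-product of small RNA libraries, and each distinct tag was counted once and scaled to 1000000 fragments of protein-coding genes (320140 were found in Ia_high and 132375 in Ia_low). Ptk2 had 16 fragments in Ia_high and 2 in Ia_low, or 50 and 15.1 after scaling, a ratio of 0.302 with an interval of 0.0337 to 1.29, which includes 1. In reads rather than distinct tags it had 90 and 65, a scaled ratio of 0.903 (0.323 to 2.17). Across 6933 genes with at least 10 fragments in both libraries together, 9.58% were called lower in Ia_low by the same rule and 6.35% higher. Ptk2 was neither. The 3 counts that an absence of fragments allows equal 22.7 in Ia_low after scaling, which is above the value of Ptk2 there. At this depth the counting error spans from a much lower level in Ia_low to a slightly higher one.

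The fragments came from different parts of the gene. Of the 16 in Ia_high, 9 with 52 reads lay in exons of coding transcripts, 2 of them in the 5′ UTR and 7 in the coding sequence. Ia_low had none of this kind, and at the Ia_high level 3.72 would have been present there, so the ratio of 0 has an upper limit of 1.23. Of the 9, 2 crossed from 1 exon into the next, as in spliced mRNA, and are shown with the bases of the second exon in capitals.

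Ptk2 exons 11 and 12: aaatcgctggtgctcctgagCCT
Ptk2 exons 16 and 17: acatcaaggcgtgtacctgagcccaGAGA

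They had 8 and 9 reads in Ia_high and none in Ia_low. The other 7 fragments in Ia_high, and both in Ia_low, matched only a noncoding transcript of Ptk2 with a retained intron. Of these, 6 and 2 came within 1 difference of transcripts of 7 to 205 other genes, so their origin in Ptk2 is uncertain. Without them Ptk2 had 10 fragments in Ia_high and 0 in Ia_low, with an upper limit of 1.08 for the ratio. Restricting the lengths to 22 to 30 nt gave 15 and 1 fragments and a ratio of 0.143 (0.00340 to 0.930), and scaling to all tags of 20 to 30 nt gave 0.228 (0.0255 to 0.971). These 2 settings put the interval below 1 and the others tried did not.

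The genes beside Ptk2 on chromosome 15 were mostly within the counting error of no difference. Ago2, which encodes an Argonaute protein that carries miRNAs, had 147 and 43 fragments, a ratio of 0.707 with an interval that reached 1. Chrac1, a chromatin remodelling subunit, had 16 and 9 (1.36, 0.530 to 3.27), and Trappc9, of a vesicle tethering complex, had 19 and 5 (0.636, 0.186 to 1.76). On the other side of Ptk2, Dennd3, an exchange factor for a Rab GTPase, was lower in Ia_low with 36 and 5 (0.336, 0.103 to 0.859). Slc45a4, a solute carrier, had 11 and 2 (0.440, 0.0474 to 2.01), and Gpr20 had none. Among genes with at least 50 fragments, the log2 ratios nearest to the -1.73 of Ptk2 were those of Etv3 (192 and 24 fragments, -1.73), Fchsd2 (56 and 7, -1.73), St6gal1 (63 and 8, -1.70), Msi2 (55 and 7, -1.70) and Copz1 (47 and 6, -1.70).

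Other intronic miRNAs give the setting for miR-151 and Ptk2. Arms shared by several hairpins, such as miR-16-5p (mean 17707 CPM), were left out here. In 49 pairs, with 43 host genes, the miRNA averaged 10 CPM or above and the host had 10 fragments or more in both libraries together. The miRNA was called lower in Ia_low in 17 of them (34.7%, beside 32.8% of all arms). The host was lower in 1 of these 17, higher in 3 and neither in 13, beside 9.58% of all genes lower and 6.35% higher. The pair in which both were lower was miR-7683-5p (26.5 and 1.49 CPM) with Slamf7 (235 and 19 fragments), which was singled out after its values were seen. Of the 10 of these 49 pairs with the most abundant miRNAs, miR-151-3p had rank 5 by mean CPM and the lowest ratio. miR-27b-3p (13227 and 6236 CPM), in 2010111I01Rik (6 and 4 fragments), and miR-340-5p (11383 and 5095 CPM), in Rnf130 (54 and 30 fragments), were the other lower miRNAs among these 10. The rest were called neither: miR-25-3p and miR-93-5p in Mcm7, let-7g-5p in Wdr82, miR-30e-5p in Nfyc, miR-98-5p in Huwe1, miR-26b-5p in Ctdsp1 and miR-342-3p in Evl. Their ratios ran from 0.714 for miR-93-5p to 1.45 for miR-342-3p. Among the 9 hosts of these 10 miRNAs, Nfyc alone was called, as higher in Ia_low with 13 and 19 fragments (3.53, 1.66 to 7.79). Mir28a lies in Lpp, which had 72 and 19 fragments, a ratio of 0.638 (0.363 to 1.07).

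Of 71 genes of the focal adhesion pathway in which Ptk2 acts, 60 were measured, and 10 were higher and 3 lower in Ia_low, with 47 neither, where 6.35% of all genes were higher and 9.58% lower. Their median log2 ratio was 0.23, beside -0.14 for all 6933 genes. Ptk2b, the relative of Ptk2, was higher in Ia_low with 87 fragments in Ia_high and 118 in Ia_low (272 and 891 after scaling), a ratio of 3.28 (2.47 to 4.38), the opposite side of 1 from the value of Ptk2. The higher genes included integrin chains, while other integrin chains of the list, such as Itgb1 (159 and 96 fragments, 1.46) and Itgb7 (39 and 21, 1.30), were neither. Itgal, the alpha chain of LFA-1, had 230 and 398 fragments (4.18, 3.55 to 4.94), and its partner Itgb2 had 179 and 161 (2.18, 1.75 to 2.71). Itgam, the alpha chain of Mac-1, had 36 and 39 (2.62), and Itgb5 had 25 and 32 (3.10). The adaptor Crk, which binds phosphorylated paxillin and Bcar1, had 36 and 47 (3.16). Also higher were the actin crosslinker Flna (340 and 347, 2.47), the Src family kinase Fgr (133 and 115, 2.09), the phosphatase Ptpn12 (50 and 43, 2.08) and Elmo2, a partner of Dock proteins (62 and 61, 2.38).

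The 3 lower genes were Actn1, an actin crosslinker at adhesions, with 79 and 2 fragments (0.0612, 0.00729 to 0.229), the PI3 kinase subunit Pik3r1 with 133 and 22 (0.400, 0.243 to 0.631), and Parvg, a parvin of blood cells, with 74 and 12 (0.392, 0.194 to 0.727). The gene of the list with the most fragments, Itga4, was neither, with 613 and 289 (1.14, 0.988 to 1.31). Neither, too, were the integrin activator Tln1 (359 and 249, 1.68), Dock2 (189 and 100, 1.28) and Itgax, which encodes CD11c (322 and 79, 0.593). The direct substrate Pxn had 106 and 49 (1.12, 0.780 to 1.58). Src had 3 and 0, and Bcar1, Efs, Lims2 and Arhgef28 had none in either library. Itgal is also on the list of Ly6C-low monocyte genes and Itgax on that of dendritic cells, which moved as given above, and the part of these cell types in the values of the pathway was not tested.

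**Figure D5:**
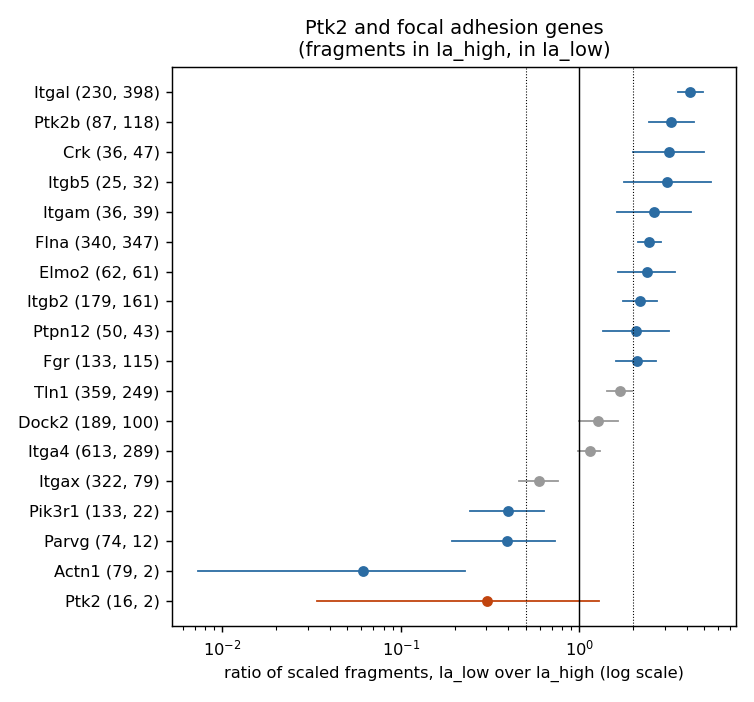
Ratio of scaled mRNA fragments, Ia_low over Ia_high (x axis, log scale), with 95% counting intervals as bars, for Ptk2 and for the named focal adhesion genes with the most fragments or called higher or lower (y axis; fragments in Ia_high and Ia_low in parentheses); the solid line marks equal levels and the dotted lines 2-fold. Ptk2 (0.302) has an interval that crosses 1, Ptk2b (3.28) lies to the right, and Actn1 (0.0612) lies furthest to the left.

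Genes with a seed match to miR-151 were called about as often as genes at large. The 8-letter match to miR-151-3p, CAGTCTAA, was sought on the sense strand of annotated 3′ UTRs and was present in 442 of 20998 genes (2.10%). Of the 196 measured, 10 were higher in Ia_low and 16 lower, with a median log2 ratio of -0.14, the same as over all genes. The match to miR-151-5p, CTCCTCGA, was present in 136 genes (0.648%), and of 60 measured 5 were higher and 4 lower, with a median of 0.20. For all 6920 measured genes with a 3′ UTR, 439 were higher and 662 lower, or 6.34% and 9.57%.

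Among genes with the 3p match, those with the most fragments were Cytip (413 and 192, ratio 1.12), Actg1 (247 and 93, 0.911), Per1 (249 and 76, 0.738), Kctd12 (228 and 88, 0.933), Gnai2 (169 and 100, 1.43), Dennd5a (165 and 89, 1.30), Ankrd44 (151 and 94, 1.51) and Nav1 (195 and 40, 0.496, lower). The largest called changes upward were in Cmah (2 and 8 fragments), Nrp2 (5 and 12), Dgkh (18 and 33) and Rtp4 (9 and 14). Downward they were in Mmp12 (79 and 0), Zkscan3 (18 and 1), Cenpe (17 and 1) and Lrp8 (16 and 1). With the 5p match, Trib1 (196 and 127, 1.57), Sorl1 (178 and 124, 1.68), Slamf7 (235 and 19, 0.196, lower), Nsd1 (175 and 67, 0.926), Cep170 (111 and 41, 0.893), Cotl1 (100 and 51, 1.23), Baz2a (109 and 40, 0.887) and Spn (44 and 105, 5.77, higher) had the most fragments. Fmnl3 (9 and 12), Eml6 (8 and 10) and Tnip3 (14 and 14) followed Spn among the higher genes, and Hmgn1 (30 and 2), Tmod2 (15 and 0) and Col14a1 (11 and 0) joined Slamf7 as the lower ones. Spn is also on the list of Ly6C-low monocyte genes, and the part of that cell type in its value was not tested. Arhgdia, a reported target of miR-151-5p, had 138 and 55 fragments, a ratio of 0.964 (0.692 to 1.33), and neither the 8-letter nor the 7-letter match was in its annotated 3′ UTR.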

How the data were processed

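The deposited files give, for each library, reads as whole-number counts per distinct sequence (tag), unscaled, as left by the authors. Per the labels' protocols, small RNA was cut from a gel, ligated to adaptors and amplified for 12 cycles; how adaptors were trimmed and reads filtered is not given in the sources used here. Tags were matched to the hairpins and transcripts of GENCODE M21 (GRCm38). Each arm is a side of a hairpin, and sides of several hairpins that shared their most abundant tag were merged into a single arm. Tags that fitted several arms were left out (0.530% and 0.273% of hairpin reads). CPM was computed here. A gene needed 10 fragments in both libraries together. Higher or lower means a 2-fold or larger ratio whose 95% interval excluded 1, on undivided counts of reads for miRNAs and of distinct tags for genes. The intervals printed for miR-151, for miR-28a and for Ptk2 by reads rest on divided counts. These scripts used Python 3.11.15, numpy 2.4.6, scipy 1.17.1 and matplotlib 3.10.9. The call rule was tested on simulated independent counts only. Those hold no PCR copies, so the test cannot show how the rule does on reads that include them.

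With 1 library per group there is no test between groups. The members, gene lists and rules were chosen with earlier results of these data known. Named genes are the members, their families and neighbours, and the 5 arms and 5 genes with the nearest ratios. From the focal adhesion list and each seed match list came the 8 genes with most fragments and the 4 largest called changes each way. From the pairs of intronic miRNA and host came the 10 most abundant miRNAs. The other called focal adhesion genes, Itgb1, Itgb7, Pxn, Src, Arhgdia, Adar and Adarb1 were named after their values were seen. Of the focal adhesion genes with most fragments, 1 is not reported here. Intron sequence outside annotated transcripts was not analysed here.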

Additional observations from a re-analysis of the deposited data

How the results depend on the processing

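No alternative turned the direction of the miR-151 or Ptk2 ratios. For arm shares and gene lists the direction was not judged, only whether a value moved. Seed match genes of miR-151-5p went from a median log2 ratio of 0.20 with the 8-letter match to -0.03 with the 7-letter match. The ratio of miR-151-3p (Ia_low over Ia_high, 0.0752) was 0.0413 when scaled to all reads, 0.0986 when centred on the median arm, 0.0927 with untemplated ends allowed, 0.126 with Ia_high weighted for read length and 0.868 by distinct tags. That of miR-151-5p (0.0755) was 0.0414 when scaled to all reads and 0.438 by distinct tags. The 5p share in Ia_high (17.5%) was 9.06% with untemplated ends, 19.2% at 20 to 24 nt and 21.2% with length weights, and in Ia_low it was 6.75% with untemplated ends. The Ptk2 ratio (0.302) was 0 both in exons of coding transcripts and without tags near another gene, 2 alternatives chosen after seeing the data. By reads it was 0.903, which lies within the main interval only because that is wide (0.0337 to 1.29). Of the 60 focal adhesion genes measured, 15 were higher and 6 lower at 1.5-fold, beside 8.91% and 11.4% of all genes. At 3-fold 4 were higher and 1 lower, beside 3.38% and 6.98% of all genes. For 7-letter matches, 35 of 654 genes measured were higher and 68 lower for miR-151-3p (5.35% and 10.4%), and 22 and 29 of 330 for miR-151-5p (6.67% and 8.79%), beside 6.35% and 9.58% of all genes. With 30 fragments or more, 5 of 118 genes measured were higher and 8 lower for miR-151-3p, and 2 and 2 of 32 for miR-151-5p. Of all 3782 genes measured at that floor, 7.93% were higher and 11.3% lower. The cause of these shifts was not tested. The remaining 38 of 62 alternative values stayed within their counting interval or within 1.5 times the count. Ptk2 by reads and the 15 focal adhesion genes higher at 1.5-fold are among these values. No paired analysis was possible because each group has 1 library, and no replicate could be left out. Depth limits Ptk2, with 16 and 2 fragments, and the A3G share in Ia_low, which rests on 1 tag.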
